A study of Mus musculus with 6 samples.

Results

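The 32 genes described here make cholesterol, sense it, move it within the cell or carry it out of the cell. They were taken as a list of gene names, 18 of enzymes that build sterols and 14 of regulators and transport proteins. The list was chosen with earlier results of these data known. All 32 were found among the 54532 gene identifiers counted. RNA was measured in 6 libraries of cDC1s, the cross-presenting subset of conventional dendritic cells (DCs), which were grown from mouse bone marrow with 80 ng/mL FLT3L, a cytokine that drives DC development, and sorted on day 8 as CD24+ CD11c+ cells lacking B220, CD115 and CD172a. The control group held 3 c-Jun/JunB fl/fl libraries (fl/fl 1, 2 and 3), in which Jun and Junb are floxed and intact. The other group held 3 c-Jun/JunB Δ/Δ Itgax-Cre libraries (Δ/Δ 1, 2 and 3), whose labels give floxed alleles plus Itgax-Cre, a Cre recombinase driven by the promoter of Itgax, which encodes CD11c, so that deletion starts once that promoter is active. All mice were of mixed 129 Sv and C57BL/6 background and of either sex. The labels do not say whether each library came from a mouse of its own, while the study's supplement counts the dots of these samples as individual mice.

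Animal cells build cholesterol from acetyl-CoA in the cytosol and the endoplasmic reticulum, first through mevalonate to farnesyl diphosphate, then through squalene to lanosterol, and last through a series of trimming steps to cholesterol. When membrane sterol is low, the escort protein SCAP takes the transcription factor SREBP-2 to the Golgi, where it is cleaved, and the released fragment turns on most genes of the pathway. INSIG proteins hold SCAP back when sterol is plentiful, and the LXR nuclear receptors respond to oxysterols by turning on genes of cholesterol export. In DCs, as in other immune cells, cholesterol sets the order of the plasma membrane in which receptors and antigen-presenting molecules lie.

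The libraries held 21693217 to 26788296 reads on genes, and values are given as CPM, read counts relative to library size after scaling with edgeR's TMM factors, always in the order of libraries 1, 2 and 3 of a genotype. Jun had 70.9, 52.5 and 63.1 CPM in the controls and 48.2, 44.3 and 60.5 CPM in the Δ/Δ group (log2 fold change −0.29, edgeR adjusted p = 0.345), and Junb had 314.5, 273.9 and 413 against 110.4, 171 and 212 CPM (log2 fold change −1.02, edgeR adjusted p = 0.0729). The groups overlapped for Jun and not for Junb, and neither targeted gene passed the adjusted p of 0.05. No source used here says which part of each gene Cre removes, so Δ/Δ names the label of these libraries and not a loss measured in these counts. By quantitative RT-PCR, the study reports deletion of c-Jun and JunB in cDC1s sorted from spleen and lymph nodes. It also measured c-Jun and JunB by RT-qPCR in cells sorted from such FLT3L cultures. The cDC1 markers Xcr1, Clec9a, Batf3 and Irf8 were present in every library, and the 12 cDC1 markers summed to 9618 to 9707 CPM in fl/fl and 7974 to 9412 CPM in Δ/Δ, where Xcr1, Tlr3 and Itgax were past the threshold and lower (edgeR adjusted p = 0.00812, 0.0226 and 0.0147, and over 0.05 for all 3 without fl/fl 1 or fl/fl 2). Of the 12 estimates, 5 were positive and 7 negative. Cadm1 was higher in every Δ/Δ library than in any fl/fl library (log2 fold change 0.32, edgeR adjusted p = 0.0615). Itgae had 201, 892 and 229 CPM in Δ/Δ 1, 2 and 3, so it raised the sum of Δ/Δ 2. The 8 cDC2 markers summed to 159 to 234 CPM in fl/fl and 284 to 421 CPM in Δ/Δ, the 9 monocyte and macrophage markers to 2451 to 2871 and 3466 to 4312 CPM, and the 6 pDC markers to 186 to 199 and 215 to 254 CPM. A few genes carried these sums, Lyz2 (1760.3 CPM) and Ccr2 (659 CPM) making up most of the monocyte and macrophage sum in fl/fl 1, and not all markers shared a direction. Ccr2, Adgre1, Klf4, Cd4 and Ccr9 were past the threshold and higher, while Ly6c2, Fcgr1 and C1qb had negative estimates (−0.45, −0.36 and −1.86), as had Sirpa (−0.21), Esam (−0.16) and the pDC marker Bst2 (−0.41), none of these 6 past the threshold. The calls of Adgre1, Klf4 and Cd4 were lost without fl/fl 1 or fl/fl 2 (edgeR adjusted p from 0.143 to 0.173), and that of Ccr2 without fl/fl 2 (0.0813). Ccr9 passed with any 1 library left out.

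Sterol genes that passed the test were higher in Δ/Δ than in fl/fl cDC1s, by less than 2-fold. By edgeR's quasi-likelihood test, 7 of the 31 members with enough reads had an adjusted p under 0.05, all 7 higher in Δ/Δ, against 2.03% of the 12894 tested genes higher, 1.85% lower and 3.88% in either direction. The 7 were Hmgcs1, Mvd, Sqle and Lss, which encode enzymes of synthesis, Insig1, which encodes a brake on SREBP activation, and Npc1 and Stard4, which encode movers of cholesterol inside the cell. Calls were thus 4 of 18 synthesis genes and 3 of 13 tested regulators and transport genes. Their rises lay between 1.30-fold for Hmgcs1 and 1.51-fold for Mvd, and no member reached a log2 fold change of 1. At an unadjusted p under 0.05, 16 members were higher and 2 lower, against 10.3% and 9.07% of all tested genes. In 18 members every Δ/Δ library lay above every fl/fl library and in 2, Abca1 and Npc2, below, while 11 overlapped, against 13.7% and 12.3% of all tested genes above and below. The median log2 fold change was 0.35 over the 18 synthesis genes and 0.07 over the 13 tested regulators and transport genes, against 0.00 over all tested genes. In sorted bulk RNA, fewer cells of a kind and less RNA per cell cannot be told apart, and the part of the cDC2, monocyte and pDC marker sums in these differences was not tested.

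**Figure D1:**
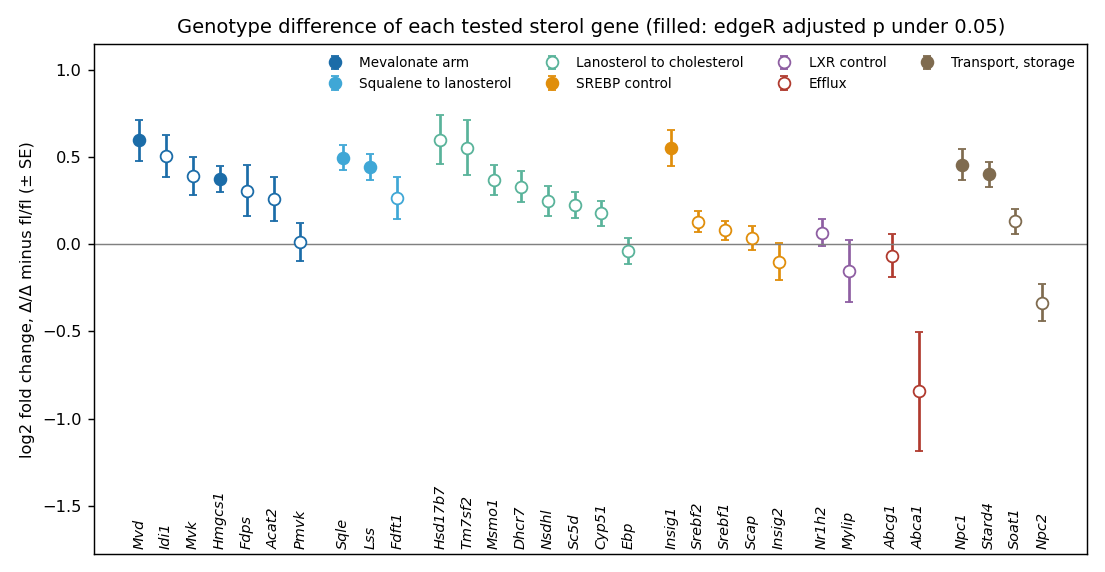
Log2 fold change, Δ/Δ minus fl/fl, of the 31 tested sterol genes with its standard error (SE), grouped by role; filled circles had an edgeR adjusted p under 0.05. The 7 filled circles lie above 0, between 0.37 and 0.60, and Abca1 at −0.84 has the longest error bar.

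The 7 calls depended on single libraries. Without fl/fl 1 none of the 31 members passed (edgeR adjusted p of the 7 from 0.103 to 0.214), nor without fl/fl 2 (0.0992 to 0.208), with 14 and 16 members at an unadjusted p under 0.05. Without fl/fl 3 Sqle alone passed (edgeR adjusted p = 0.0491). Without Δ/Δ 2, Mvd and Insig1 were lost (edgeR adjusted p = 0.0648 and 0.0546), and without Δ/Δ 3 Hmgcs1, Mvd, Lss, Insig1 and Npc1 were lost (0.0848, 0.0852, 0.0528, 0.0711 and 0.0886) while Npc2 passed as lower (0.0237). Without Δ/Δ 1 all 7 stayed past the threshold with Idi1, Tm7sf2 and Msmo1 beside them. The share of all tested genes past the threshold moved as well, to 0.719%, 0.716% and 1.51% when control library 1, 2 or 3 was left out and to 9.96%, 5.43% and 2.65% when Δ/Δ library 1, 2 or 3 was. The log2 fold change of each of the 7 ran from 0.30 for Hmgcs1 to 0.71 for Mvd with any 1 library left out. Its direction could hardly change, because in all 7 every Δ/Δ library lay above every fl/fl library.

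Promoter windows of the genes are shown because members of the SREBP pathway share short elements near their start sites. The RefSeq windows used, 250 bases before each start on GRCm38.p6, were given for 26 of the 32 members. The sterol regulatory element (SRE), searched as TCACNCCAC on both strands, was found in the windows of Hmgcs1 alone among the members and in 1.22% of 27025 genes. The NF-Y element CCAAT, again on both strands, was found in 21 of 26 members, including 14 of 15 synthesis genes, and in 37.5% of all genes. The shares of all genes, here and below, were not limited to tested genes or matched for base composition. A higher share among the members therefore cannot be read as a trait of the pathway. For the SRE as well, a window without a match says only that these letters were not in it. In the sequences of Hmgcs1 (chr13:119690101-119690350, plus strand), Mvd (chr8:122443423-122443672, minus strand), Lss (chr10:76531355-76531587, plus strand) and Insig1 (chr5:28071162-28071362, plus strand), capitals mark SRE and NF-Y matches, and those of Lss and Insig1 stop where an annotated exon begins.
Hmgcs1: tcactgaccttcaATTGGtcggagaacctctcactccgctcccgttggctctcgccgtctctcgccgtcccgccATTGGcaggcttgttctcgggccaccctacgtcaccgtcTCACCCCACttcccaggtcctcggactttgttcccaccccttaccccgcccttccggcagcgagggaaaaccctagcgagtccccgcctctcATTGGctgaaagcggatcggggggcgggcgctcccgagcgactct
Mvd: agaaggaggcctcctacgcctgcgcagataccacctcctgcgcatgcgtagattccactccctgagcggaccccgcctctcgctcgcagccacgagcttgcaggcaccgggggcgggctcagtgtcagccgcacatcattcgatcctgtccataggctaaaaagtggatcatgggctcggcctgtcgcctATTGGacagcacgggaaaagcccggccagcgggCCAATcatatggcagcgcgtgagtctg
Lss: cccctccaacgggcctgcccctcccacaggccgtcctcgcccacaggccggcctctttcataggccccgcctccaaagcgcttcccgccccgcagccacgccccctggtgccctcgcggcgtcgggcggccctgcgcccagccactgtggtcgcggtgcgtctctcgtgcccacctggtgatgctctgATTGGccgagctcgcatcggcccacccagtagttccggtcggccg
Insig1: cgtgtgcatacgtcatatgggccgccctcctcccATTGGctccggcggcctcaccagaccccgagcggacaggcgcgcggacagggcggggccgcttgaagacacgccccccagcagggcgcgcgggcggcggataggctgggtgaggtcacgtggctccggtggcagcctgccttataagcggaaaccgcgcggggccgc

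Jun proteins bind the AP-1 element, so TGACTCA was searched in the same windows on both strands. It was found in 5.16% of all genes and in 2 members, Dhcr7 and Msmo1, neither past the threshold, and in 0 of the 4 genes of the 7 with a window, which says only that these letters were not in the 250 bases. The E-box CACGTG was found in 6 members and 6.86% of all genes, and the GC box GGGCGG in 22 members and 35.4% of all genes. The AP-1 matches, in capitals, lay inside annotated exons of Dhcr7 (chr7:143830097-143830125, plus strand) and Msmo1 (chr8:64733688-64733716, minus strand), 11 bases of sequence on either side being shown.
Dhcr7: ctggtgggctcTGAGTCAgctcactgcct
Msmo1: cttcgttgactTGAGTCAcacgctgccgg

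The mevalonate arm comprised 7 genes, of which 2 rose and 5 did not pass the test (median log2 fold change 0.37). Gene coordinates here and in what follows are those of GENCODE M21 on GRCm38 (mm10). Hmgcs1, the cytosolic synthase that makes HMG-CoA (ENSMUSG00000093930.2, chromosome 13, 119690379 to 119708260), had 293, 294 and 298 CPM in the controls and 349, 420.3 and 377 CPM in the Δ/Δ group. The fl/fl values lay close together and each Δ/Δ value above all of them (log2 fold change 0.37 ± 0.08 SE, edgeR adjusted p = 0.0429), and 12.1% of its merged exon length lies opposite the predicted gene Gm48342. Mvd, the decarboxylase that makes isopentenyl diphosphate (ENSMUSG00000006517.5, chromosome 8, 122433601 to 122443422), had 32.7, 33.6 and 36.1 CPM against 43.2, 53.7 and 58.0 CPM. Its groups did not overlap, with Δ/Δ 1 the lowest of the Δ/Δ libraries (log2 fold change 0.60 ± 0.12 SE, edgeR adjusted p = 0.0394). Idi1, which isomerises that product, had 34.0, 28.0 and 31.5 CPM against 39.9, 51.1 and 42.2 CPM. The groups did not overlap but the test was not passed (log2 fold change 0.51 ± 0.12 SE, edgeR adjusted p = 0.0679). Mvk, mevalonate kinase, had 14.8, 14.8 and 16.1 CPM against 18.5, 22.3 and 19.2 CPM (log2 fold change 0.39 ± 0.11 SE, edgeR adjusted p = 0.111), again without overlap. Acat2, the thiolase that makes acetoacetyl-CoA, had a log2 fold change of 0.26 and Fdps, farnesyl diphosphate synthase, of 0.31, with edgeR adjusted p values of 0.312 and 0.314. Of the merged exon length of Fdps, 26.7% is shared with the predicted gene Gm43738 on the same strand, so its counts are uncertain. Pmvk, the kinase between Mvk and Mvd, had 56.8, 54.4 and 51.5 CPM in the controls against 46.3, 60.3 and 57.8 CPM in Δ/Δ cells. Its groups overlapped, with Δ/Δ 1 below all fl/fl libraries and Δ/Δ 2 and 3 above them (log2 fold change 0.01 ± 0.11 SE, edgeR adjusted p = 0.960).

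From farnesyl diphosphate to lanosterol the path runs through 3 enzymes, of which 2 rose. Sqle, the squalene epoxidase and a rate-limiting step (ENSMUSG00000022351.14, chromosome 15, 59315077 to 59331192), had 104, 109 and 114 CPM in the controls and 148, 166 and 147 CPM in the Δ/Δ group. All Δ/Δ libraries lay well above the fl/fl range (log2 fold change 0.50 ± 0.07 SE, edgeR adjusted p = 0.0149, the smallest of the members). Lss, the cyclase that folds the epoxide into lanosterol (ENSMUSG00000033105.12, chromosome 10, 76531588 to 76557138), had 52.4, 51.8 and 51.6 CPM against 65.6, 76.5 and 70.0 CPM. Its fl/fl libraries were almost alike and the Δ/Δ libraries all lay above them (log2 fold change 0.44 ± 0.07 SE, edgeR adjusted p = 0.0220). Fdft1, squalene synthase, had 53.2, 53.5 and 57.5 CPM against 55.9, 77.5 and 64.3 CPM. Its groups overlapped because Δ/Δ 1 fell within the fl/fl range (log2 fold change 0.27 ± 0.12 SE, edgeR adjusted p = 0.276), and 18.3% of its merged exon length lies opposite Ctsb.

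None of the 8 genes from lanosterol to cholesterol passed the test (median log2 fold change 0.29). In 7 of the 8 every Δ/Δ library lay above every fl/fl library, against 13.7% of all tested genes. By edgeR the same 7 were higher at an unadjusted p under 0.05, against 10.3% of all tested genes. Both counts rest on the same values. The estimates ran from −0.04 for Ebp to 0.60 for Hsd17b7. Hsd17b7, a 3-ketosteroid reductase, had 17.97, 15.4 and 20.9 CPM in the controls against 27.0, 30.7 and 24.6 CPM in Δ/Δ cells (log2 fold change 0.60 ± 0.14 SE, edgeR adjusted p = 0.0673). Msmo1, which oxidises the methyl groups at carbon 4, had 89.9, 93.7 and 92.1 CPM against 108, 134 and 113.8 CPM (log2 fold change 0.37 ± 0.09 SE, edgeR adjusted p = 0.0687). In neither gene did the groups overlap. Tm7sf2, a sterol C14 reductase, had 7.29, 6.93 and 6.87 CPM against 8.68, 12.1 and 10.2 CPM (log2 fold change 0.55 ± 0.16 SE, edgeR adjusted p = 0.113), with 12.1% of its merged exon length shared with Vps51 on the same strand. Dhcr7, which makes cholesterol from 7-dehydrocholesterol, had 24.7, 29.5 and 26.8 CPM against 34.0, 32.8 and 35.02 CPM (log2 fold change 0.33 ± 0.09 SE, edgeR adjusted p = 0.0994). Nsdhl, Sc5d and Cyp51, a decarboxylating dehydrogenase, a desaturase and the lanosterol demethylase, had smaller estimates of 0.25, 0.23 and 0.18 (edgeR adjusted p = 0.180, 0.152 and 0.241). Ebp, a sterol isomerase, had 38.1, 39.4 and 39.6 CPM against 38.2, 40.0 and 35.9 CPM, and its groups overlapped (log2 fold change −0.04 ± 0.07 SE, edgeR adjusted p = 0.815).

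**Figure D2:**
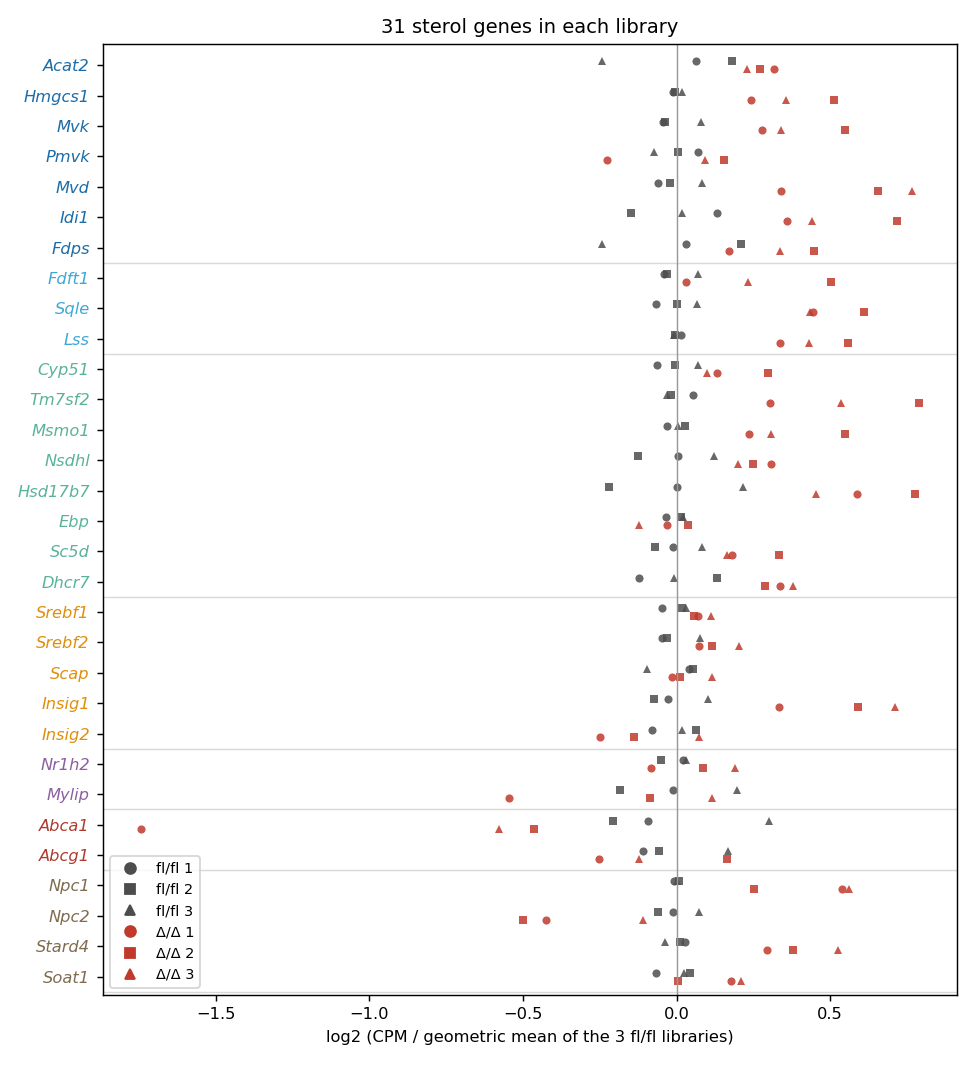
Log2 of CPM over the geometric mean of the 3 fl/fl libraries, for each of the 31 tested genes (rows, in blocks by role and in the order synthesis, SREBP control, LXR control, efflux, transport and storage) and each library (symbols). In the upper blocks most Δ/Δ symbols lie to the right of the fl/fl symbols, with Pmvk and Ebp as rows where they mix; Abca1 and Npc2 lie to the left.

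**Figure D3:**
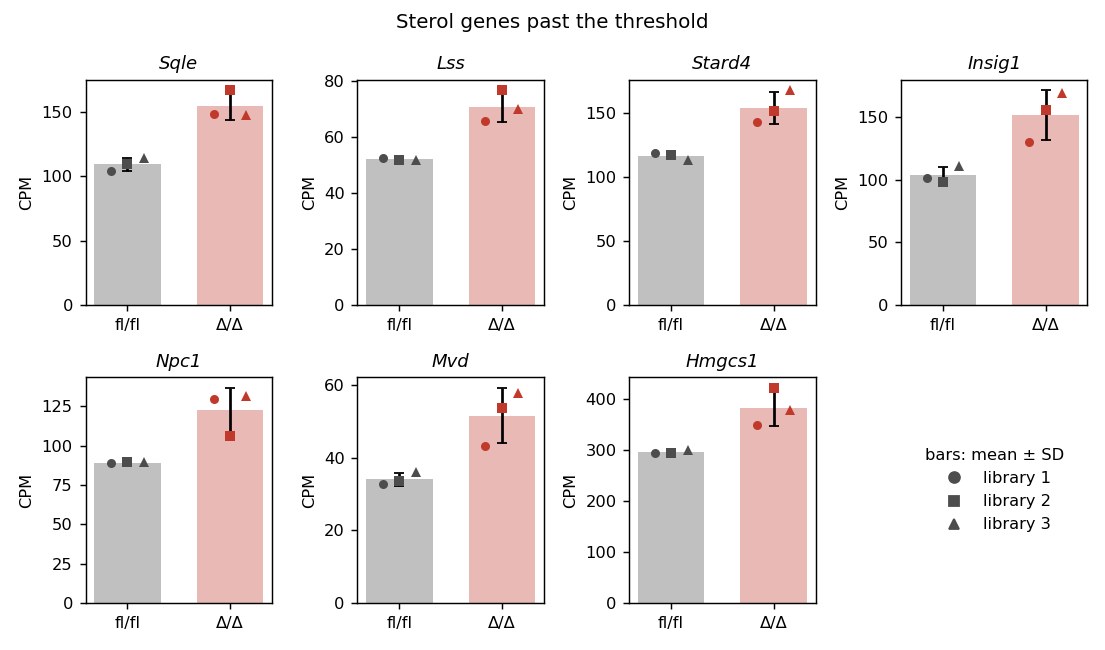
CPM per library (symbols) of the 7 genes with an edgeR adjusted p under 0.05; bars show the mean and error bars the SD of 3 libraries, and each axis starts at 0. Every Δ/Δ symbol lies above every fl/fl symbol in all 7 panels.

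Of the 5 genes that control SREBP, Insig1 rose and the others did not pass the test. Insig1, which is itself a target of SREBP (ENSMUSG00000045294.11, chromosome 5, 28071363 to 28078662), had 101, 98.0 and 111 CPM in the controls and 130.1, 155 and 169 CPM in the Δ/Δ group. The lowest Δ/Δ library lay above the highest fl/fl library (log2 fold change 0.55 ± 0.10 SE, edgeR adjusted p = 0.0342). Its paralog Insig2 had 26.4, 29.1 and 28.3 against 23.5, 25.3 and 29.3 CPM, with overlapping groups (log2 fold change −0.10 ± 0.11 SE, edgeR adjusted p = 0.645). Srebf2, which encodes SREBP-2, had 735, 744 and 802 CPM against 799, 823 and 875 CPM. Only the lowest Δ/Δ library, Δ/Δ 1, lay within the fl/fl range (log2 fold change 0.13 ± 0.06 SE, edgeR adjusted p = 0.303). Srebf1, which encodes the SREBP-1 isoforms of fatty acid synthesis, had a log2 fold change of 0.08, and Scap of 0.04 (edgeR adjusted p = 0.454 and 0.805). These values are of the messenger RNA, and cleavage of the SREBP proteins was not measured.

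Inside the cell, cholesterol freed in lysosomes is handed from the soluble NPC2 to the membrane protein NPC1, STARD4 carries it between membranes, and SOAT1 esterifies it for storage. Npc1 (ENSMUSG00000024413.13, chromosome 18, 12189692 to 12236400) had 88.8, 89.7 and 89.3 CPM in the controls and 129.7, 106 and 132 CPM in the Δ/Δ group. The fl/fl libraries were almost alike, and Δ/Δ 2, the library highest for most synthesis genes, was the lowest of the Δ/Δ libraries here (log2 fold change 0.46 ± 0.09 SE, edgeR adjusted p = 0.0370). Stard4 (ENSMUSG00000024378.9, chromosome 18, 33199355 to 33213862) had 119, 118 and 114 against 143, 152 and 168 CPM, without overlap (log2 fold change 0.40 ± 0.07 SE, edgeR adjusted p = 0.0282). Npc2 was the most abundant member per length in fl/fl, Srebf2 being so in Δ/Δ (116 against 92.3 CPM per kb of merged exon), and its estimate had the opposite sign to that of Npc1. It had 628, 606 and 666 CPM in the controls against 471, 447 and 587 CPM in Δ/Δ cells, which lay below all fl/fl libraries, but it did not pass the test (log2 fold change −0.34 ± 0.11 SE, edgeR adjusted p = 0.143, DESeq2 adjusted p = 0.0397). Soat1 had 133.8, 145 and 143 against 159, 141 and 162 CPM, with overlapping groups (log2 fold change 0.13 ± 0.07 SE, edgeR adjusted p = 0.366).

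None of the tested LXR and efflux genes passed the test. Abca1, the exporter that loads cholesterol onto apolipoprotein A-I, had 5.98, 5.52 and 7.85 CPM in the controls against 1.91, 4.62 and 4.27 CPM in Δ/Δ cells. Its Δ/Δ libraries lay below its fl/fl libraries, with Δ/Δ 1 well below the other two (log2 fold change −0.84 ± 0.34 SE, edgeR adjusted p = 0.239, unadjusted p = 0.0416). Abcg1, an exporter to mature lipoprotein particles, had 174, 181 and 211 against 158, 211 and 173 CPM, and its groups overlapped (log2 fold change −0.07 ± 0.12 SE, edgeR adjusted p = 0.812). Nr1h2, which encodes LXRβ, had a log2 fold change of 0.07 and Mylip, an LXR target whose product degrades lipoprotein receptors, of −0.15 (edgeR adjusted p = 0.683 and 0.681). Nr1h3, which encodes LXRα, was at 0.0467 to 0.352 CPM in all libraries and had too few reads to be tested.

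**Figure D4:**
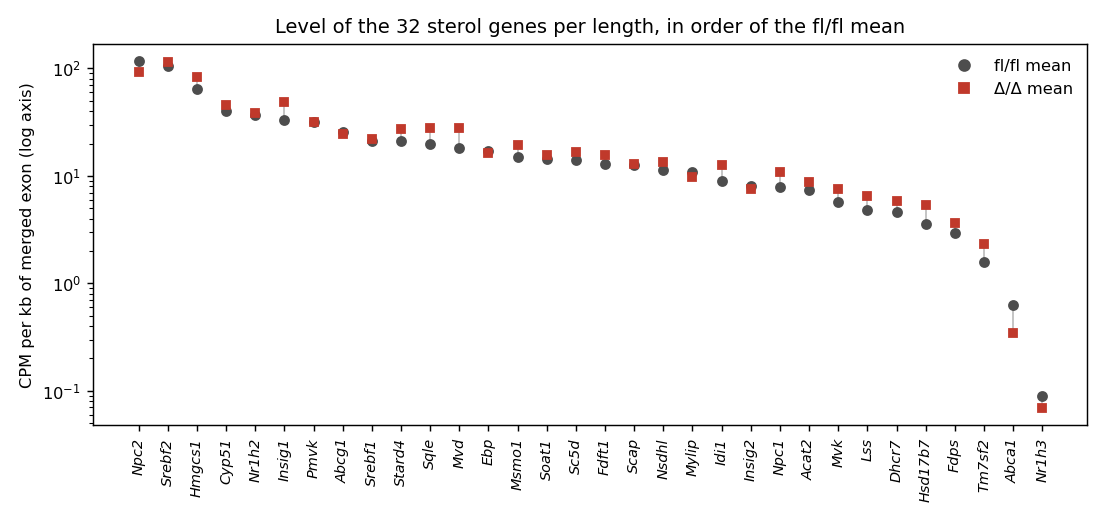
Level of the 32 genes in CPM per kb of merged exon (log axis), in order of the fl/fl mean, with the Δ/Δ mean beside it. Npc2 and Srebf2 are the highest at 116 and 106 in fl/fl and Abca1 and Nr1h3 the lowest at 0.622 and 0.0897.

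Per kb of merged exon, the fl/fl levels spanned from 116 for Npc2 and 106 for Srebf2 to 1.60 for Tm7sf2, 0.622 for Abca1 and 0.0897 for Nr1h3. Among the synthesis enzymes Hmgcs1 was the highest at 64.2 and Cyp51 followed at 40.3, while Lss was at 4.82 and Fdps at 2.92. With the length of the principal transcript instead, a choice made after the data had been seen, Npc2, Srebf2 and Hmgcs1 kept the first 3 places and Abca1 and Nr1h3 the last, and Msmo1 moved from place 14 to 7 and Npc1 from 23 to 16.

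By library, the 18 synthesis genes gave close fl/fl values and graded Δ/Δ values. Their mean log2 difference from the fl/fl mean was −0.01, −0.01 and 0.01 in fl/fl 1, 2 and 3 and 0.24, 0.46 and 0.32 in Δ/Δ 1, 2 and 3, and their summed CPM was 1121, 1131 and 1164 against 1332, 1560.4 and 1397. Δ/Δ 2 was the highest Δ/Δ library for 14 of the 18 genes and Δ/Δ 1 the lowest for 10. With Δ/Δ 2 left aside, 14 of the 18 lay above every fl/fl library, and with Δ/Δ 1 left aside 17 did. Groups of fewer libraries separate more easily, and the share of all tested genes was not computed for these counts. The 7 genes past the threshold had a different order, with mean differences of 0.36, 0.51 and 0.54 in Δ/Δ 1, 2 and 3. The median coefficient of variation of the synthesis genes was 4.87% in fl/fl and 9.49% in Δ/Δ libraries, against 7.80% and 11.9% over all tested genes. The latter were not matched to the synthesis genes for read count, so the lower spread cannot be read as a trait of these genes.

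Cell state also differed by library, and its part in the sterol genes was not tested. The 8 mature DC genes, such as Ccr7 and Fscn1, summed to 749 to 1122 CPM in fl/fl and to 156, 1830.3 and 353 CPM in Δ/Δ 1, 2 and 3. By summed CPM, Δ/Δ 2 was the highest and Δ/Δ 1 the lowest Δ/Δ library for both the mature and the synthesis genes. Δ/Δ 1 and 3 were lower than every fl/fl library for the mature genes and higher for the synthesis genes. A link between the 2 lists was not tested, and an order of 3 libraries cannot show one. The 10 proliferation genes summed to 1045 to 1572 CPM in fl/fl and to 1438, 655 and 434 CPM in Δ/Δ 1, 2 and 3, and the 11 immediate early genes to 529 to 866 and to 727, 1609 and 1947 CPM. Genes of B cells, T and NK cells, neutrophils and basophils summed to at most 49.3, 1.06, 17.6 and 16.7 CPM in any library.

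**Figure D5:**
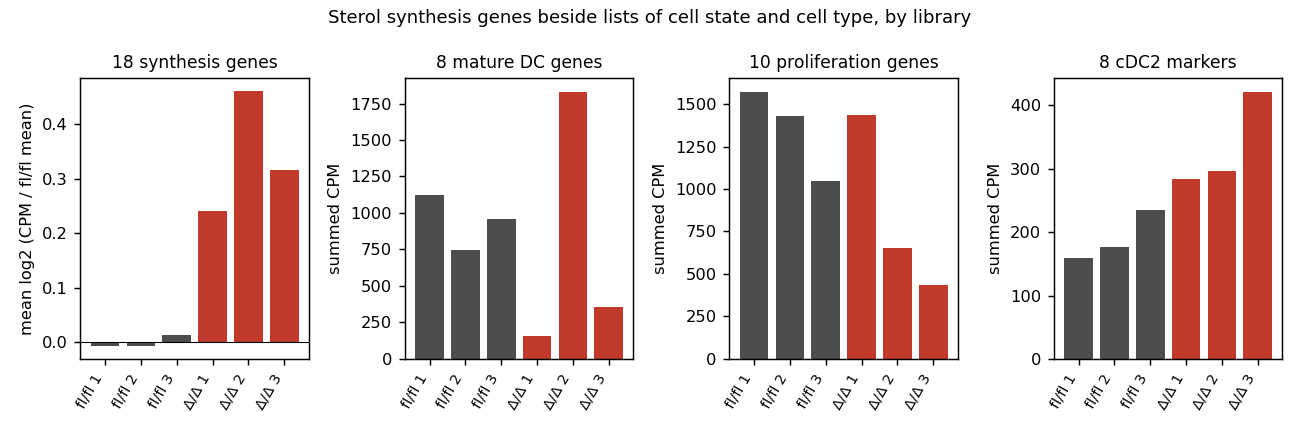
Mean log2 difference from the fl/fl mean of the 18 synthesis genes, and summed CPM of mature DC genes, proliferation genes and cDC2 markers, for each library. The synthesis bars stand at 0.24, 0.46 and 0.32 in Δ/Δ 1, 2 and 3, whose mature DC bars lie both above and below those of fl/fl.

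The neighbouring pathways were read from lists of 88 further genes, of which 73 were tested, 1 rose and 2 fell, a share near the 3.88% of all tested genes past the threshold in either direction. Of 11 genes that handle SREBP or its partners, 1 fell. Erlin1, a membrane protein of the endoplasmic reticulum that restrains SREBP, had 194, 187 and 196 against 153, 159 and 144 CPM (log2 fold change −0.34 ± 0.06 SE, edgeR adjusted p = 0.0243). Fatty acid synthesis, the other arm of SREBP control, had 1 of 15 tested genes past the threshold. This was Aacs, which makes acetoacetyl-CoA from ketone bodies in the cytosol, with 85.4, 88.6 and 79.1 against 114, 124 and 118 CPM (log2 fold change 0.49 ± 0.07 SE, edgeR adjusted p = 0.0116). Of 6 tested LXR targets 1 fell, Smpdl3a, a secreted phosphodiesterase, with 3.97, 4.78 and 7.25 against 0.771, 0.980 and 1.76 CPM (log2 fold change −2.18 ± 0.38 SE, edgeR adjusted p = 0.0273). Like those of the members, these 3 calls were lost without fl/fl 1 (edgeR adjusted p from 0.0837 to 0.141) or fl/fl 2 (0.0630 to 0.112), and all but that of Aacs without fl/fl 3 (0.0944 to 0.106), while that of Erlin1 was lost without Δ/Δ 3 (0.0529). DESeq2 also passed the LXR target Abca7 (log2 fold change 0.33, DESeq2 adjusted p = 0.0070) and Acly of fatty acid synthesis (0.18, DESeq2 adjusted p = 0.0218), chosen after their values were seen. At an unadjusted p under 0.05 by edgeR, 1 of 6 tested LXR targets was higher and 2 lower, against 10.3% and 9.07% of all tested genes. Of 15 tested fatty acid genes 4 were higher and 0 lower. Of 11 SREBP-handling genes 0 were higher and 2 lower.

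In the other branches no gene passed edgeR's test. Among 15 genes of isoprenoid use, such as prenylation and dolichol synthesis, the largest estimates were those of Acat3 (log2 fold change −1.07, at most 1.10 CPM) and Pdss2 (−0.43), with edgeR adjusted p values of 0.242 and 0.241. Among 23 tested genes of sterol binding, transfer and uptake they were those of Lima1 (−1.16, edgeR adjusted p = 0.151, DESeq2 adjusted p = 0.0141) and Lrp1 (0.37, edgeR adjusted p = 0.625). Among 3 tested oxysterol genes they were Cyp27a1 (0.31) and Gpr183 (0.23), with edgeR adjusted p values of 0.215 and 0.327. At an unadjusted p under 0.05 by edgeR, 0 of the 15 isoprenoid genes were higher and 2 lower, 5 of the 23 sterol binding genes were higher and 3 lower, and 1 of the 3 oxysterol genes was higher and 0 lower, against 10.3% and 9.07% of all tested genes. By DESeq2's Wald test, which put 8.56% of all tested genes past the threshold, 4 of the 23 sterol binding genes passed, namely Lima1 and, chosen after their values were seen, Plin2 (log2 fold change −0.29, DESeq2 adjusted p = 0.00438), Scp2 (0.26, DESeq2 adjusted p = 0.00729) and Osbp (0.23, DESeq2 adjusted p = 0.0467), and none of the isoprenoid and oxysterol genes.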

How the data were processed

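Poly(A) RNA of sorted cDC1s was made into directional libraries for paired-end sequencing on a NextSeq500. For alignment to mm10 the authors used STAR 2.6.1a (2-pass, Gencode vM19), and they deposited its read counts per gene, neither normalized nor pooled. The labels' processing notes also list RSEM. Which strand column was taken is not stated in any source used here, so genes with exons on the opposite strand may carry its reads. Only uniquely mapped reads are counted, and STAR's tallies of reads outside genes (20.3 to 20.9% of reads) were left out of depth and tests.

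Of 54532 identifiers, 54495 matched GENCODE M21, from which names, coordinates and exon lengths came. Counts were tested with edgeR 4.0.16 in R 4.3.3 (TMM, quasi-likelihood F-test on genotype) over the 12894 genes that filterByExpr kept at its minimum count of 10 and total of 15, and p-values were adjusted after Benjamini-Hochberg across these. The SE is the log2 fold change over the root of the F statistic. Alternatives were DESeq2 1.42.0, limma-voom 3.58.1, DESeq2 size factors, no filter, a stricter filter, a replicate block and each library left out. Genes named were all members, Jun and Junb, and of each context list those with an adjusted p under 0.05 or the 2 largest estimates, with markers for the cell type. An item of the context lists is not reported here. The members and lists were chosen with earlier results of these data known. The edgeR, limma-voom and DESeq2 fits were tested on simulated data with 200 changed genes. At a true log2 fold change of 0.5, edgeR recovered 2 of the 200 with 2 false calls, and DESeq2 recovered 63 with 42 false calls. At a true log2 fold change of 1, edgeR recovered 129 with 7 false calls. A gene with an estimate near 0.5 that did not pass is therefore not shown to be unchanged. A count of 0 allows 3 reads pooled over 3 libraries, which is 0.0393 (fl/fl) or 0.0435 (Δ/Δ) CPM, for counting error only. Pairs of libraries differed by more than sampling noise (chi-square per degree of freedom 6.77 to 42.3).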

Additional observations from a re-analysis of the deposited data

Results flagged for a closer look

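Reads on no gene were outside the main measurement and made up at least 9.35% of all reads in the Δ/Δ libraries, above the at most 9.23% of the fl/fl libraries. Reads on overlapping genes, left uncounted by STAR, made up at least 1.9% in the Δ/Δ libraries, against at most 1.895% in the fl/fl libraries.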

How the results depend on the processing

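Of 372 values of the 31 tested members under the alternatives, 322 kept their direction and their side of the threshold, 30 fell short of it, 11 passed it and 9 changed sign. The sign changes, all with 1 library left out, were in members whose main log2 fold change was smaller in size than its SE. The log2 fold changes of Pmvk ran from −0.0603 to 0.124, of Ebp from −0.0775 to 0.00149, of Scap from −0.0113 to 0.0645, of Mylip from −0.307 to 0.0129 and of Abcg1 from −0.191 to 0.0249. The count of members past the threshold was 11 by DESeq2's Wald test (10 higher, with Idi1, Msmo1 and Hsd17b7 added, and Npc2 lower), 0 with a log2 fold change of at least 1 added, 18 at an unadjusted p under 0.05, and 0 to 10 with 1 library left out, 0 being the count without fl/fl 1 and without fl/fl 2, where 14 and 16 members had an unadjusted p under 0.05. The count of all genes past it was 1104 by DESeq2's Wald test, 762 with no filter on low counts, and 95 to 1320 with 1 library left out. With a replicate block 4 members passed, Mvd, Sqle, Lss and Insig1, and 417 genes in all. Deviations of same-numbered libraries correlated at 0.091, −0.148 and 0.200 for numbers 1, 2 and 3. While fl/fl 1 and fl/fl 3 correlated best with the Δ/Δ library of their own number, fl/fl 2 did so with Δ/Δ 1 (0.152). With 3 libraries per genotype these values cannot show whether same-numbered libraries were paired. The medians of the synthesis genes (0.28 to 0.41) and of the regulator and transport genes (0.00 to 0.09) moved by less than the spread between libraries. The cause of these changes was not tested. Members under 1 CPM are limited by depth, Nr1h3 being the case here.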
